A study of Mus musculus with 2 samples.

Results

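10 genes of actin assembly at the plasma membrane were followed through the cell types of the mouse forebrain just before birth: Enah, Evl and Vasp (the Ena/VASP family), Diaph1 and Diaph2 (formins), Baiap2 and Srgap2 (membrane-bending proteins), and Dbn1, Cttn and Wasl (proteins that bind actin filaments or start actin branches). The members were chosen by gene symbol as 10 of the 32285 genes counted. Cells were taken from 2 droplet libraries of embryonic day 18.5 forebrain, 1 labelled Cyfip2 knockout (KO below) and 1 labelled wild type (WT below), each made from a pool of 2 forebrains. The labels give neither strain, sex nor the kind of Cyfip2 allele. With 1 library a genotype, no KO and WT difference can be set against replicate spread, and every interval below is a 95% interval that covers counting error only.

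Growing neurons push their membrane outward with actin. Ena/VASP proteins sit at the tips of filopodia and lamellipodia, hold off capping of the filament end and speed its elongation. Formins nucleate and elongate unbranched filaments under the control of small GTPases. Proteins with BAR-type domains bend the membrane itself, and N-WASP, the product of Wasl, switches on the Arp2/3 complex to branch filaments, as does the WAVE complex that holds the Cyfip2 product. In the developing cortex these proteins take part in radial migration, axon outgrowth and, later, dendritic spines.

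The 3 Ena/VASP genes were highest in different cells, so the 250 bases before the RefSeq start site of each are shown, on the coding strand in GRCm38 (mm10), with motif matches in capitals. Enah at chr1:182019981-182020230 (minus strand), Evl at chr12:108554470-108554719 (plus strand) and Vasp at chr7:19271855-19272104 (minus strand) read as follows.
Enah: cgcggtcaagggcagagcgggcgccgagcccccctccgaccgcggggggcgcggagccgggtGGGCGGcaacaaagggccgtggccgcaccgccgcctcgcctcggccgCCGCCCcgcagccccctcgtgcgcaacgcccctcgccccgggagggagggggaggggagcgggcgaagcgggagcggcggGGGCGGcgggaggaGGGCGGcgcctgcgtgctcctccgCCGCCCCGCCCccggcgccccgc
Evl: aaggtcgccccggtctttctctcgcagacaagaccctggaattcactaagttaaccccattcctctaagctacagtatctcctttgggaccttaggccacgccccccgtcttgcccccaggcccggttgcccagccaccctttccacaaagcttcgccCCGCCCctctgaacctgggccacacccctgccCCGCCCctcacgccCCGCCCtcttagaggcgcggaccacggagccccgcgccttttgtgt
Vasp: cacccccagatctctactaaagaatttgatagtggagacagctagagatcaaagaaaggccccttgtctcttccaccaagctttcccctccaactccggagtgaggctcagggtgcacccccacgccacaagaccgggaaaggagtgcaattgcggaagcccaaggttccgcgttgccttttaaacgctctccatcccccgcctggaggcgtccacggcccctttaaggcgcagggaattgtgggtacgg
The capitals mark the GC box GGGCGG on either strand, which had 6 matches before Enah, including an overlapping pair, 3 before Evl and 0 before Vasp. Of 32851 mouse promoters of the same length in the RefSeq table, 32.7% hold this motif. CpG dinucleotides numbered 42, 16 and 12 before Enah, Evl and Vasp, against a median of 6 over those promoters. None of the 3 windows held CAGATG (14.4% of all windows), CAGCTG (13.001%), CCGGAAG (6.91%), TGACGTCA (1.55%) or a CArG box (1.47%), each searched on both strands. RefSeq windows were at hand for 8 of the 10 members.

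The KO library held 150828048 UMIs and the WT library 123978461, and 11533 KO and 8426 WT cells were kept, with medians of 7787 UMIs a cell in KO and 9567 in WT. Both libraries shared 32 cell barcodes, 0.249% of the called KO cells and 0.352% of the called WT cells. Cyfip2 itself had nearly the same level in both libraries: over all cells it was at 84.4 CPM in KO and 84.9 CPM in WT, where CPM counts the UMIs of a gene per 1000000 UMIs summed over the cells. It was higher in KO in progenitors as a whole, at KO 61.7 and WT 34.7 CPM, but not in intermediate progenitors, at KO 61.7 and WT 62.2 CPM. In immune cells it was at KO 48.6 and WT 3.96 CPM, from only 84 UMIs in KO and 4 in WT, too few to count as measured by the rule given below. In excitatory neurons it was at KO 93.1 and WT 106 CPM (log2 ratio -0.18, -0.24 to -0.13) and in GABAergic neurons at KO 78.7 and WT 86.5 CPM (-0.14, -0.24 to -0.03). Among the GABAergic classes the interval lay below 0 in interneurons of the medial eminence (-0.48, -0.64 to -0.32). It included 0 in striatal neurons (0.13, -0.04 to 0.30) and in interneurons of the caudal or lateral eminence (0.12, -0.13 to 0.38). The kind of allele is not known here, and 3' tags need not cover an altered part of the gene, so the genotype is taken from the label and was not checked. Clustering without the members gave 35 clusters, of which 32 had at least 3 genes of a marker set higher than in the remaining cells. The Tac2 Eomes, Inhba, Tfap2d and Cck Nrp2 clusters are named for leading genes. The Inhba, Tfap2d and Cck Nrp2 clusters were matched to a general excitatory set, with 5, 3 and 3 of its 8 genes higher. Matches were also partial in upper-layer cluster 3 (4 of 8 genes) and migrating cluster 9 (4 of 7). The other classes are named for their marker sets and are radial glia-like, upper-layer-neuron-like and so on, with the suffix left out below. Of all named classes, 16 had 50 or more cells in KO and in WT, and each level below is the CPM of the summed UMIs of a class. Dividing cortical and dividing eminence progenitors were matched only to the marker set of dividing cells. The region in their names was not scored against a marker set. Because UMIs are not corrected for how well each transcript is captured, levels are compared between classes for 1 gene and not between genes.

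Evl, the gene of the Ena-VASP-like protein, had levels that climbed over the cortical classes below, from radial glia to deep-layer neurons, in both libraries. These classes were sampled at the same age, and no lineage was traced between them. Evl (ENSMUSG00000021262) lies on the plus strand of chromosome 12 from 108554720 to 108688516. It was at KO 73.9 and WT 81.1 CPM in radial glia, at KO 135 and WT 149 CPM in intermediate progenitors, at KO 188 and WT 204 CPM in the Tac2 Eomes newborn cluster, and at KO 244 and WT 237 CPM in migrating excitatory neurons. Upper-layer neurons held KO 280.0 and WT 279.6 CPM and deep-layer neurons KO 384 and WT 361 CPM. Deep-layer neurons thus stood 5.20-fold above radial glia in the KO library (log2 2.38, 2.17 to 2.59) and 4.45-fold in the WT library (2.15, 1.98 to 2.33). The GABAergic side had the same order: striatal neurons held KO 371 and WT 392 CPM and the progenitors of the ganglionic eminence KO 123 and WT 132 CPM, a fold of 3.01 in KO and 2.98 in WT. Interneurons of the medial eminence (KO 374 and WT 382 CPM) and striatal neurons had overlapping intervals, whereas those of the caudal or lateral eminence were lower, at KO 279 and WT 292 CPM. Some cells outside these classes held more Evl per UMI in both libraries, given here as raw counts without intervals. Cajal-Retzius cells (59 KO and 38 WT cells) had 447 Evl UMIs of 1094544 in KO and 402 of 778306 in WT. Unnamed cluster 21 (245 KO and 171 WT cells) had 363 of 685302 in KO and 307 of 526330 in WT. That cluster carried no marker set, and its cells were shallow, with medians of 2237 UMIs in KO and 2224 in WT.

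Enah, which encodes Mena, had another peak. Enah (ENSMUSG00000022995; chromosome 1, 181896384 to 182019990, minus strand) was at KO 150.1 and WT 158 CPM in radial glia, KO 169 and WT 178 CPM in intermediate progenitors, and KO 245 and WT 267 CPM in the newborn cluster. It then held KO 241 and WT 237 CPM in migrating neurons and KO 236 and WT 240.0 CPM in upper-layer neurons, against KO 166 and WT 171 CPM in deep-layer neurons. Deep-layer neurons were thus below upper-layer neurons by a log2 ratio of -0.50 (-0.59 to -0.42) in the KO library and -0.49 (-0.57 to -0.41) in the WT library. The highest level among the 16 classes was in the Cck Nrp2 excitatory cluster, at KO 259 and WT 297 CPM. Its interval overlapped that of the newborn cluster, the next in order, in at least 1 library. Enah and Evl also ran opposite ways inside classes. Of the 2 clusters of upper-layer neurons, cluster 0 held KO 299 and WT 292 CPM of Enah with KO 247 and WT 245 CPM of Evl, while cluster 3 held KO 190.5 and WT 192 CPM of Enah with KO 303 and WT 311 CPM of Evl. Of the 2 clusters of migrating neurons, cluster 1 held KO 294 and WT 300.4 CPM of Enah with KO 206 and WT 203 CPM of Evl, and cluster 9 held KO 179.9 and WT 183 CPM of Enah with KO 287 and WT 267 CPM of Evl. The clusters with more Enah had the shallower cells, with medians over both libraries of 5963.5 UMIs in cluster 0 and 5657 UMIs in cluster 1, against 15612 in cluster 3 and 12582 in cluster 9, and the part of depth in this pattern was not tested.

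Vasp, first known as a substrate of cyclic nucleotide-dependent kinases in platelets, was highest outside the neuronal lineage. Vasp (ENSMUSG00000030403; chromosome 7, 19256929 to 19271817, minus strand) ran from 16.8 to 28.1 CPM in the KO library and from 15.6 to 25.9 CPM in the WT library over the 15 classes of neurons and progenitors. Immune cells held 94.3 CPM in KO (80.4 to 109.9) and 108 CPM in WT (88.6 to 130.1). Vascular cells, with only 69 KO and 34 WT cells, held 268 CPM in KO (238 to 299) and 290.1 CPM in WT (241 to 347), which is 12.98-fold the level of excitatory neurons in KO and 14.4-fold in WT. Most vascular cells of the KO library belonged to the endothelial cluster and most of the WT library to the mural cluster. Within the mural cluster Vasp was at KO 309 and WT 326 CPM (KO 79 and WT 110 UMIs), and within the endothelial cluster at KO 256 and WT 131 CPM (KO 226 and WT 10 UMIs). Among immune cells the microglia held KO 155 and WT 155 CPM and the border-associated macrophages KO 60.3 and WT 71.9 CPM.

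**Figure D1:**
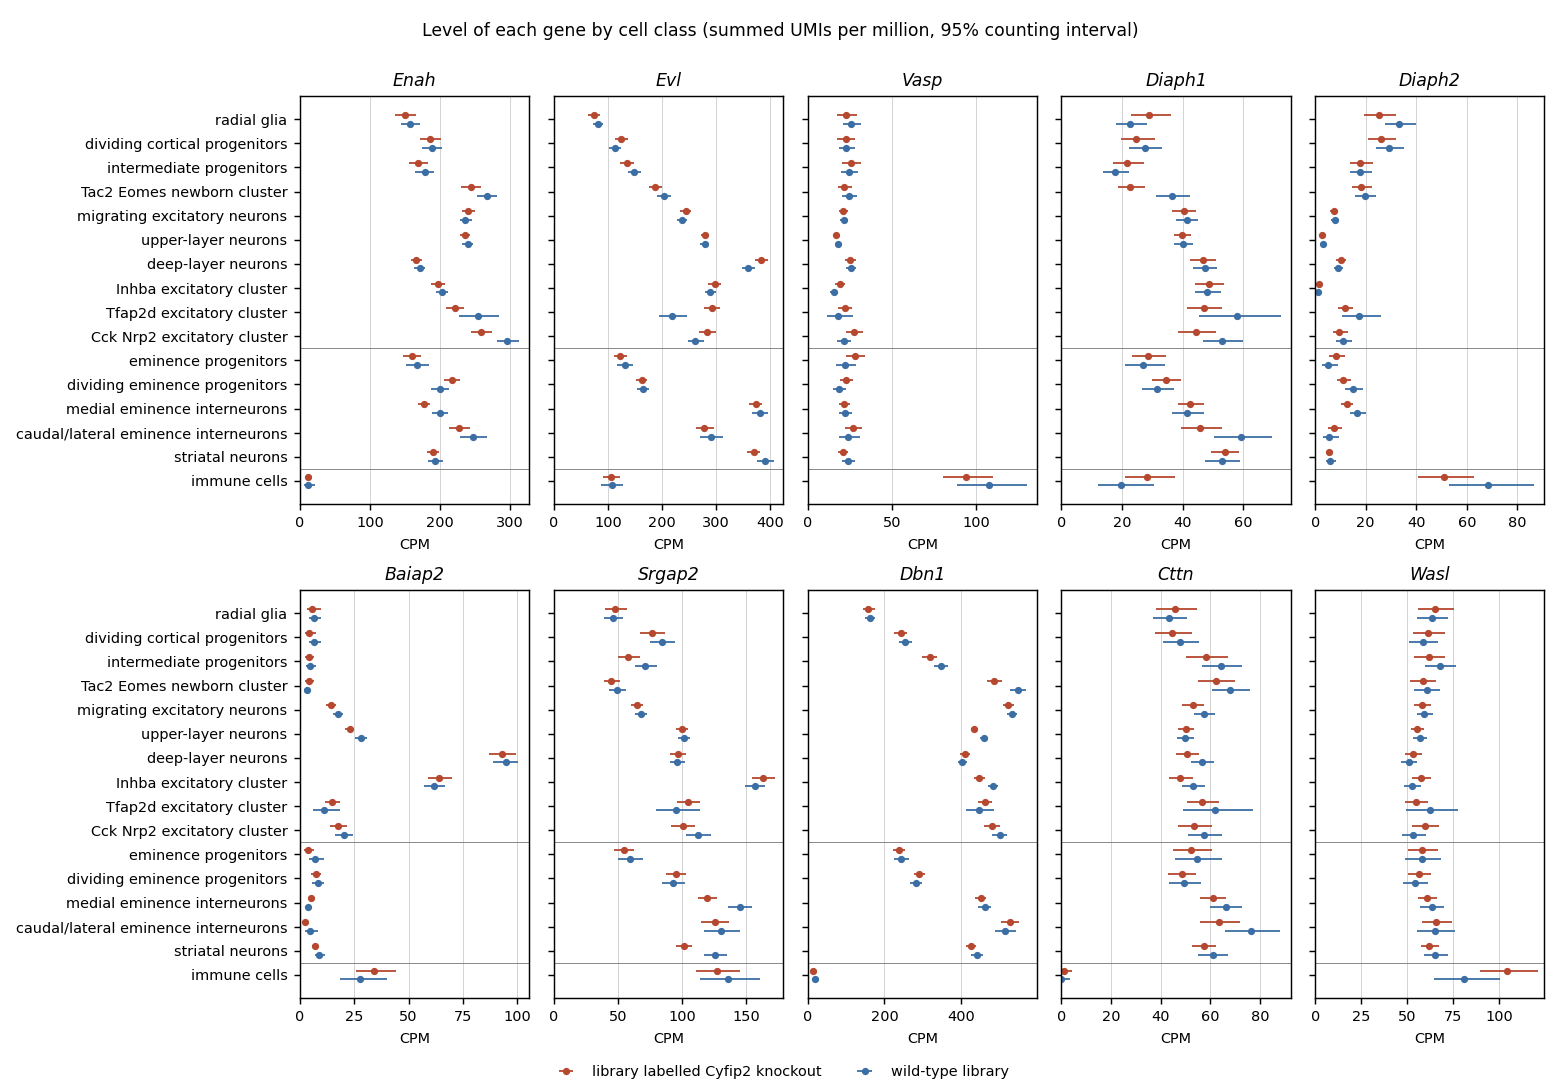
Level of the 10 genes (CPM of summed UMIs, horizontal axes from 0) in the 16 classes with 50 or more cells per library; red points are the library labelled Cyfip2 knockout, blue points below them the WT library, and bars are 95% counting intervals. Evl and Dbn1 climb from radial glia to neurons, Baiap2 peaks in deep-layer neurons at KO 93.2 and WT 94.8 CPM, Vasp and Diaph2 stand highest in immune cells, and Wasl and Cttn are nearly level outside them.

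As shares of the summed UMIs of Enah, Evl and Vasp, the Enah part was smaller and the Evl part larger in excitatory and GABAergic neurons as a whole than in progenitors. Enah made up KO 41.0% and WT 42.3% in excitatory neurons and KO 33.6% and WT 34.2% in GABAergic neurons, against KO 54.1% and WT 54.2% in progenitors. Not every class had this order: in WT the Enah part was 51.8% in the Tfap2d cluster (45.1% without doublet removal) and 51.1% in the Cck Nrp2 cluster, beside 50.6% in intermediate progenitors. Enah made up 60.8% (56.9 to 64.6) of the family in radial glia of the KO library and 59.6% (56.4 to 62.7) in the WT library, KO 47.6% and WT 47.8% in migrating neurons, and KO 28.9% and WT 30.7% in deep-layer neurons. Evl made up KO 29.9% and WT 30.6% in radial glia and KO 66.8% and WT 64.7% in deep-layer neurons. The eminence classes had the same direction, with Enah at KO 51.4% and WT 52.1% of the family in eminence progenitors and at KO 32.7% and WT 31.7% in striatal neurons. Vasp was KO 9.26% and WT 9.79% of the family in radial glia, KO 3.16% and WT 3.38% in upper-layer neurons, KO 44.5% and WT 47.6% in immune cells, and KO 67.9% and WT 72.7% in vascular cells. Each share compares classes and does not say which protein is more abundant.

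**Figure D2:**
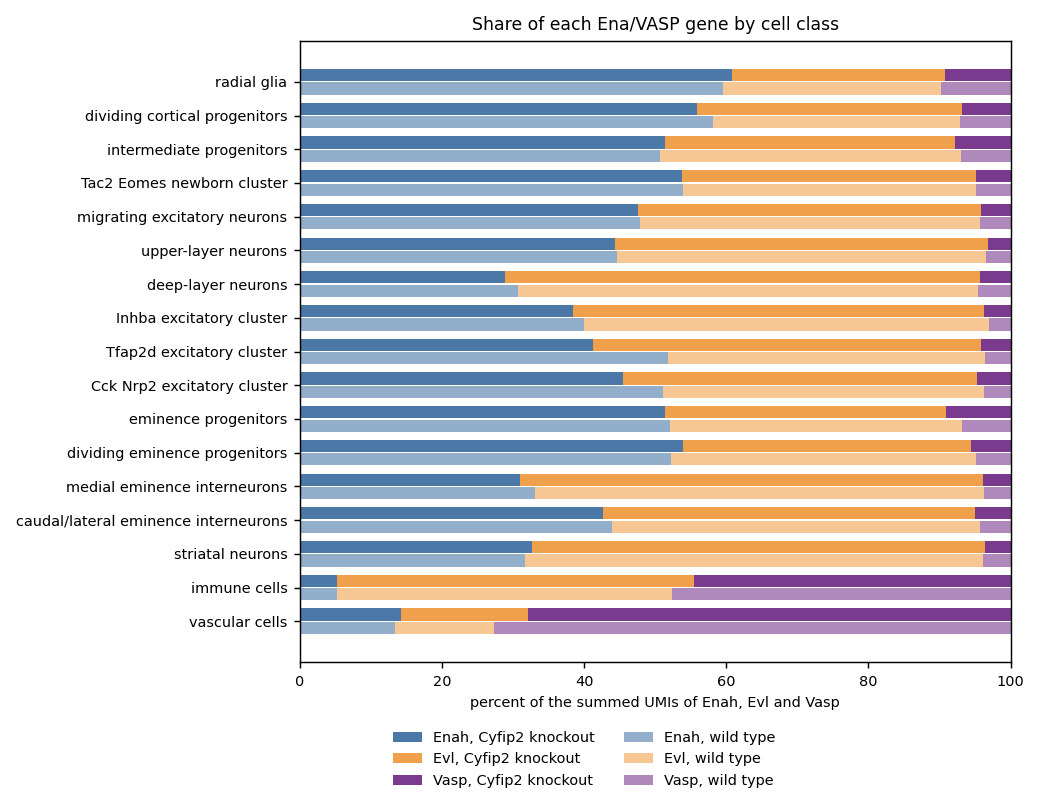
Share of Enah, Evl and Vasp (percent of their summed UMIs, horizontal axis) in 16 classes and in vascular cells; for each class the upper, darker bar is the library labelled Cyfip2 knockout and the lower, paler bar the WT library. The Enah share is KO 28.9% and WT 30.7% in deep-layer neurons, against KO 60.8% and WT 59.6% in radial glia, and Vasp takes most of the bar only in vascular cells.

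The formins had opposite patterns over the cortical classes, with Diaph1 higher in excitatory neurons and Diaph2 higher in radial glia. Diaph1 (ENSMUSG00000024456), which encodes mDia1, an effector of RhoA, is a minus-strand gene on chromosome 18 (37843601 to 37935476). It was at KO 28.6 and WT 25.5 CPM in progenitors, at KO 43.4 and WT 44.8 CPM in excitatory neurons and at KO 48.1 and WT 49.4 CPM in GABAergic neurons. Excitatory neurons were 1.52-fold above progenitors in the KO library (log2 0.60, 0.47 to 0.74) and 1.76-fold in the WT library (0.81, 0.67 to 0.96). Striatal neurons held KO 54.0 and WT 53.0 CPM, and intermediate progenitors, the lowest class in both libraries, KO 21.8 and WT 17.7 CPM.

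Diaph2 (ENSMUSG00000034480; chromosome X, 129749742 to 130465834, plus strand), whose product belongs to the same formin group, was lower in excitatory neurons than in radial glia, an order that the eminence classes did not share throughout. It was at KO 25.2 and WT 33.2 CPM in radial glia, KO 17.9 and WT 17.7 CPM in intermediate progenitors, KO 7.27 and WT 7.74 CPM in migrating neurons and KO 2.84 and WT 3.20 CPM in upper-layer neurons. Upper-layer neurons were thus below radial glia by a log2 ratio of -3.15 in KO (-3.69 to -2.61) and -3.38 in WT (-3.88 to -2.89). The Inhba excitatory cluster held 11 UMIs of Diaph2 in each library, or KO 1.34 and WT 1.105 CPM. Eminence progenitors held KO 8.25 and WT 5.22 CPM, from 29 UMIs in KO and 13 in WT, dividing eminence progenitors KO 11.1 and WT 15.0 CPM, and GABAergic neurons as a whole KO 8.58 and WT 10.2 CPM. Among neurons past the newborn stage, interneurons of the medial eminence, at KO 12.6 and WT 16.6 CPM, and the Tfap2d excitatory cluster, at KO 11.6 and WT 17.2 CPM, held the most. Immune cells held KO 50.9 and WT 68.3 CPM, and the mural cluster KO 133 and WT 133 CPM from KO 34 and WT 45 UMIs. As a share of the UMIs of Diaph1, Diaph2 and Diaph3, Diaph2 made up KO 33% and WT 40.5% in radial glia, KO 57.1% and WT 71.1% in immune cells, and KO 9.06% and WT 9.79% in striatal neurons. Diaph3, the remaining gene of that formin group, was at KO 62.5 and WT 66.9 CPM in dividing cortical progenitors and, among neurons, at KO 59.6 and WT 61.5 CPM in deep-layer neurons, against KO 14.3 and WT 17.8 CPM in upper-layer neurons.

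Baiap2 was concentrated in deep-layer neurons, the Inhba excitatory cluster and Cajal-Retzius cells. It encodes IRSp53, whose I-BAR domain bends the membrane outward and which binds Cdc42 and WAVE proteins. Baiap2 (ENSMUSG00000025372; chromosome 11, 119942763 to 120006782, plus strand) was at KO 3.88 and WT 4.48 CPM in intermediate progenitors, KO 14.1 and WT 17.4 CPM in migrating neurons, KO 22.8 and WT 28.02 CPM in upper-layer neurons and KO 93.2 and WT 94.8 CPM in deep-layer neurons. Deep-layer neurons exceeded upper-layer neurons 4.09-fold in KO (log2 2.03, 1.87 to 2.20) and 3.38-fold in WT (1.76, 1.60 to 1.92). One deep-layer cluster, led by Hs3st4 and Nxph3, had the higher level, at KO 218 and WT 208 CPM, and the other, with Adcyap1 and Fezf2 among its leading genes, was at KO 57.1 and WT 61.5 CPM. The Inhba excitatory cluster held KO 64.1 and WT 61.8 CPM. Inhba and Mef2c, genes of the upper-layer marker set, were among its leading genes, but this cluster is not counted with upper-layer neurons in these comparisons. Cajal-Retzius cells, early-born cells of the marginal zone that secrete Reelin, held 123 CPM in 59 KO cells (103 to 146) and 173 CPM in 38 WT cells (145 to 205). GABAergic neurons held KO 5.46 and WT 6.04 CPM, against KO 37.9 and WT 44.0 CPM in excitatory neurons. Outside the neurons, immune cells held KO 34.1 and WT 27.7 CPM of Baiap2, from 59 UMIs in KO and 28 in WT. Their interval overlapped that of upper-layer neurons in at least 1 library.

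Srgap2, whose F-BAR domain also bends the membrane outward and whose GAP domain acts on Rac1, had a flatter profile. Srgap2 (ENSMUSG00000026425; chromosome 1, 131285251 to 131527352, minus strand) was at KO 47.6 and WT 45.9 CPM in radial glia, KO 58.1 and WT 71.2 CPM in intermediate progenitors, KO 64.7 and WT 67.8 CPM in migrating neurons, KO 99.7 and WT 101 CPM in upper-layer neurons and KO 96.4 and WT 95.9 CPM in deep-layer neurons. Upper-layer neurons were 2.09-fold above radial glia (log2 1.07, 0.80 to 1.34) in the KO library and 2.21-fold (1.14, 0.91 to 1.38) in the WT library. Its highest class was the Inhba excitatory cluster, at KO 163 and WT 156 CPM. Interneurons of the medial eminence, next in order at KO 119 and WT 145 CPM, had an overlapping interval in at least 1 library. Immune cells held KO 127 and WT 136 CPM, with KO 187 and WT 182 CPM in microglia and KO 93.7 and WT 99.9 CPM in border-associated macrophages. Cajal-Retzius cells, rich in Baiap2, were low in Srgap2, at 18.3 CPM in KO (11.2 to 28.2) and 39.8 CPM in WT (27.1 to 56.5).

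**Figure D3:**
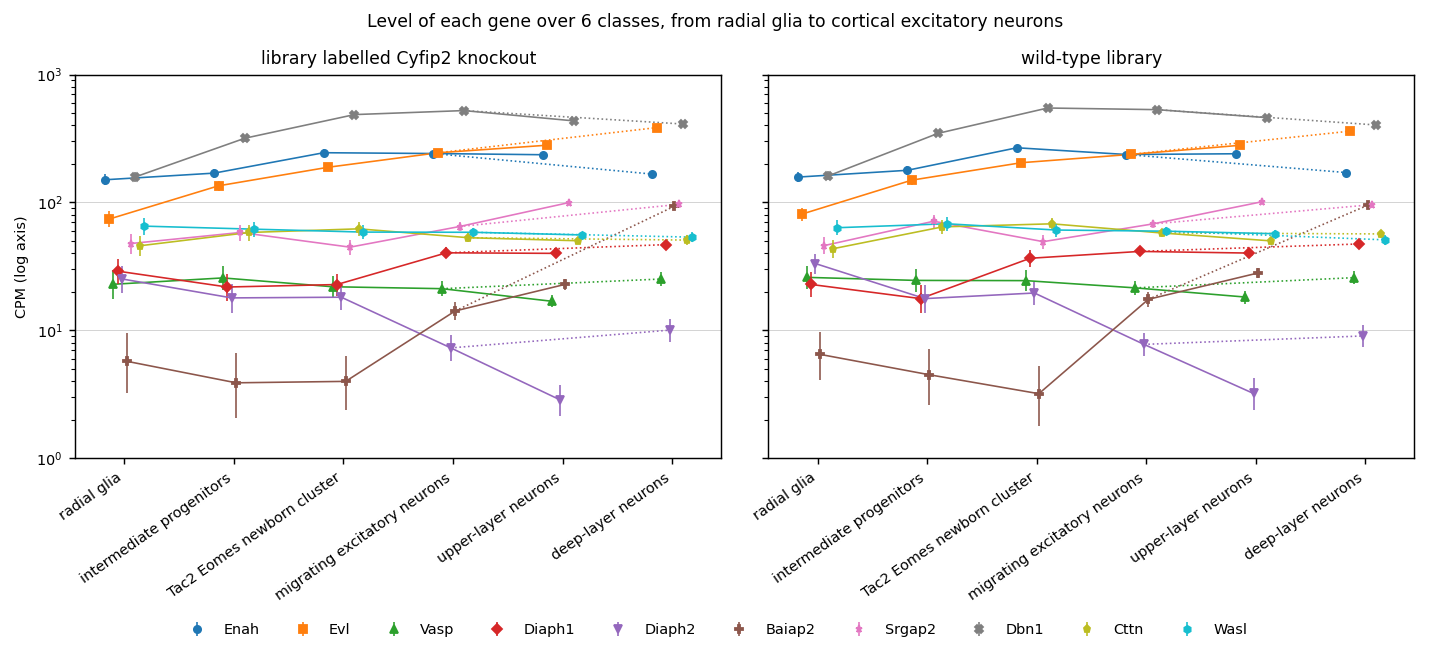
Level of the 10 genes (CPM, log axis) in 6 classes from radial glia to upper-layer and deep-layer neurons; the left panel is the library labelled Cyfip2 knockout, the right panel the WT library, points carry 95% counting intervals, solid lines join classes up to upper-layer neurons and dotted lines join migrating to deep-layer neurons. Baiap2 climbs to KO 93.2 and WT 94.8 CPM in deep-layer neurons while Diaph2 drops to KO 2.84 and WT 3.20 CPM in upper-layer neurons, in both panels. The lines join classes of the same age and trace no lineage.

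Dbn1, which encodes drebrin, a side-binding protein of actin filaments that later marks dendritic spines, was a general neuronal gene. Dbn1 (ENSMUSG00000034675; chromosome 13, 55473429 to 55488111, minus strand) was at KO 158 and WT 161 CPM in radial glia, KO 317 and WT 347 CPM in intermediate progenitors, KO 486 and WT 547 CPM in the newborn cluster and KO 522 and WT 531 CPM in migrating neurons. It was lower in the settled classes, at KO 434 and WT 460.03 CPM in upper-layer neurons and KO 410.01 and WT 403 CPM in deep-layer neurons. Excitatory neurons exceeded radial glia 2.87-fold in KO (log2 1.52, 1.38 to 1.66) and 2.92-fold in WT (1.55, 1.43 to 1.67). Interneurons of the caudal or lateral eminence reached KO 527 and WT 514 CPM, with intervals that overlapped those of migrating excitatory neurons. Dividing cortical progenitors, at KO 242 and WT 255 CPM, were above radial glia 1.53-fold in KO and 1.58-fold in WT. After each cell was thinned to 1000 UMIs, 37.2% of KO and 38.5% of WT excitatory neurons held a Dbn1 UMI, against 90.8% in KO and 92.8% in WT unthinned. Of immune cells thinned alike, 0.917% in KO and 0 of 50 in WT held one, with an exact upper bound of 7.11% in WT.

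Cttn encodes cortactin, which binds and stabilises the branches made by Arp2/3. Cttn (ENSMUSG00000031078; chromosome 7, 144435733 to 144471009, minus strand) ran only from 44.5 to 63.4 CPM in the KO library and from 43.3 to 76.3 CPM in the WT library over the 15 classes of neurons and progenitors. Radial glia held KO 45.7 and WT 43.3 CPM. The highest class in both libraries was the caudal or lateral eminence interneurons, at KO 63.4 and WT 76.3 CPM. The newborn cluster, next in order at KO 62.1 and WT 67.9 CPM, had an overlapping interval in at least 1 library. Immune cells all but lacked it, with 2 UMIs (1.16 CPM, 0.14 to 4.18) in 109 cells of the KO library and 0 UMIs in 50 cells of the WT library, where 3 counts would be 2.97 CPM. The level of barcodes under 100 UMIs, a measure of free RNA, was KO 55.7 and WT 60.3 CPM for Cttn, KO 155 and WT 158 CPM for Enah and KO 515 and WT 505 CPM for Dbn1. Immune cells held KO 10.99 and WT 11.9 CPM of Enah and KO 13.9 and WT 18.8 CPM of Dbn1, well under the level of free RNA in the same libraries. Free RNA makes up only a part of the UMIs of a cell. Whether these few counts came from it was not tested.

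Wasl, the gene of N-WASP, had the smallest range of the members over the 16 classes, 1.96-fold in KO and 1.59-fold in WT. Wasl (ENSMUSG00000029684; chromosome 6, 24613805 to 24665009, minus strand) ran from 53.4 to 65.9 CPM in the KO library and from 50.9 to 68.0 CPM in the WT library over neurons and progenitors. Radial glia held KO 65.2 and WT 63.3 CPM and excitatory neurons KO 56.3 and WT 55.3 CPM, a log2 ratio of neurons over radial glia of -0.21 in KO (-0.43 to 0.02) and -0.19 in WT (-0.39 to 0.01), both of which include 0. Immune cells held KO 105 and WT 81.2 CPM. Among them, border-associated macrophages held KO 142 and WT 128 CPM and microglia KO 37.2 and WT 20.5 CPM. The KO library had 68 of these macrophages and 41 microglia, and the WT library 26 and 24.

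Between the libraries, 1 of the measured member and class pairs differed past a fixed size. A member counts as measured in a class with a level of 20 CPM or more in KO or WT and 100 or more counts in total, and as higher or lower past the rule of size with a ratio of at least 1.5-fold and an interval that leaves out 0 on the log2 scale. Over the 16 classes there were 160 pairs of a member and a class, of which 129 were measured. By the rule of size 0 were higher and 1 was lower in the KO library, 0.775% of the pairs, against 1.81% of all measured pairs of a gene and a class. The counting interval lay above 0 in 2 pairs and below 0 in 15 (13.2% together, against 18.6% of all pairs), and it included 0 in 112. The median log2 ratio of the 129 pairs was -0.04, and the range ran from -0.68 to 0.42.

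**Figure D4:**
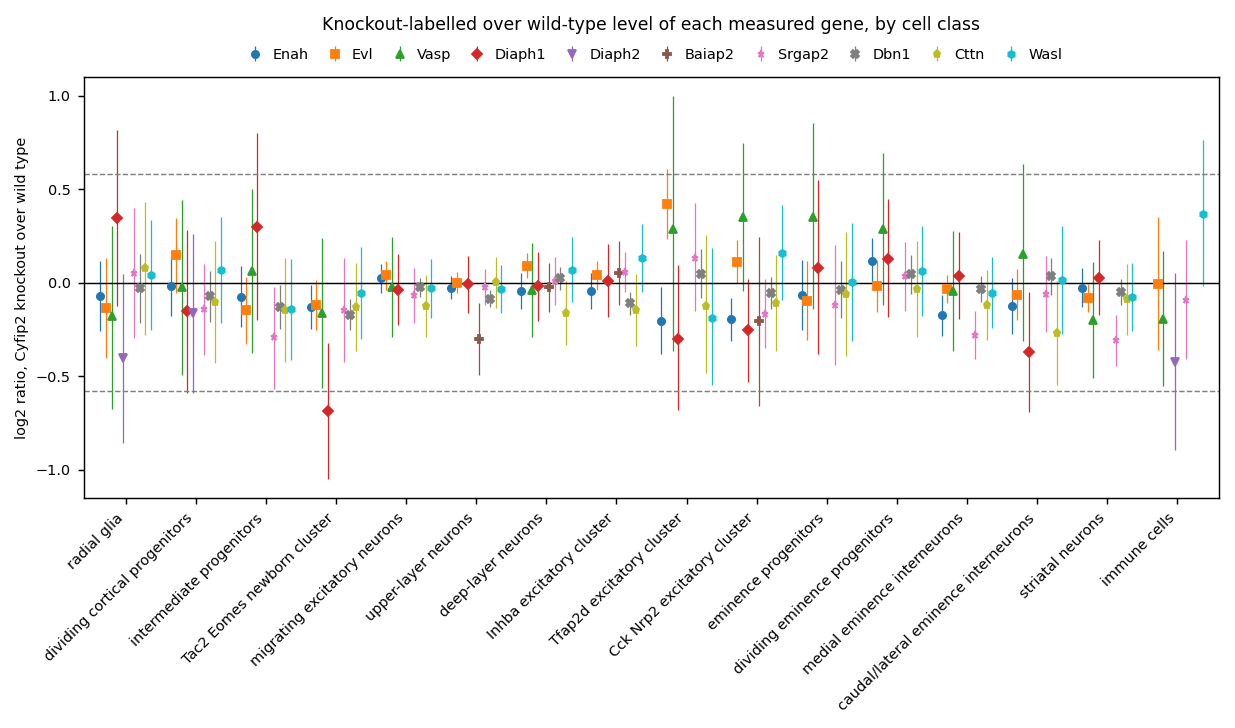
Log2 ratio (KO over WT level) (vertical axis) of each measured gene in each of 16 classes (horizontal axis), with 95% counting intervals; dashed lines mark 0.58 in either direction. Only Diaph1 in the Tac2 Eomes newborn cluster, at -0.68, lies past a dashed line with an interval that leaves out 0, and Evl in the Tfap2d cluster, at 0.42, is the highest point.

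The 1 member past the rule of size was Diaph1 in the Tac2 Eomes newborn cluster, cells that carry Tac2, Sstr2 and Eomes. It was at 22.8 CPM (103 UMIs) in the KO library and 36.5 CPM (172 UMIs) in the WT library, a log2 ratio of -0.68 (-1.05 to -0.32). In this cluster 0.775% of 6712 measured genes were past the rule in either direction. The other measured members there had ratios from -0.17 to -0.05, and those of Enah (-0.13, -0.25 to -0.01) and Dbn1 (-0.17, -0.25 to -0.09) also had intervals below 0, as had 8.16% of all measured genes. At the finer clustering resolution of 2 the ratio of Diaph1 was -0.41, under the rule of size, and without doublet removal no such cluster formed. In the classes on either side the interval of the Diaph1 ratio included 0: it was 0.30 (-0.20 to 0.80) in intermediate progenitors and -0.04 (-0.23 to 0.15) in migrating neurons. Its interval also lay below 0 in interneurons of the caudal or lateral eminence, at KO 45.9 and WT 59.3 CPM (-0.37, -0.69 to -0.05). The newborn cluster held 519 KO and 479 WT cells and was kept apart from the progenitors after its genes had been seen.

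In excitatory neurons 9 members were measured, all but Diaph2, and 0 were past the rule of size, as were 0.251% of 6763 genes. Their median log2 ratio was -0.03, beside -0.01 over all genes. Evl was at KO 295 and WT 285 CPM (0.05, 0.02 to 0.08), with an interval above 0 as in 14.8% of genes. Baiap2, Cttn and Dbn1 had intervals below 0, as had 23.1% of genes. Baiap2 was at 37.9 CPM in the KO and 44.0 CPM in the WT library (-0.21, -0.30 to -0.13), but its ratio was -0.01 when each cluster had the same weight in both libraries. Deep-layer neurons, its richest class, made up 5.22% of KO and 7.05% of WT cells, and within them Baiap2 was at KO 93.2 and WT 94.8 CPM (-0.02, -0.15 to 0.11). Within upper-layer neurons it was at KO 22.8 and WT 28.02 CPM (-0.30, -0.49 to -0.10). The part of cell shares in the Baiap2 ratio of excitatory neurons was not tested beyond the equal cluster weights. Cttn was at KO 51.3 and WT 54.4 CPM (-0.09, -0.16 to -0.01) and Dbn1 at KO 454 and WT 472 CPM (-0.05, -0.08 to -0.03).

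In GABAergic neurons 8 members were measured, all but Baiap2 and Diaph2, 0 were past the rule of size (0.629% of 6841 genes were), and the median ratio was -0.06, beside -0.01 over all genes. Srgap2, Cttn, Enah and Evl had intervals below 0, as had 15.1% of genes, and 0 members had one above, as had 11.3% of genes. Srgap2 was at 113 CPM in the KO and 134 CPM in the WT library (-0.25, -0.34 to -0.17), or -0.15 with equal cluster weights. It was lower in both large classes of these neurons, at KO 119 and WT 145 CPM in interneurons of the medial eminence (-0.28, -0.41 to -0.15) and at KO 102 and WT 126 CPM in striatal neurons (-0.31, -0.44 to -0.17), while in interneurons of the caudal or lateral eminence it was at KO 125 and WT 131 CPM (-0.06, -0.26 to 0.15). In all 3 striatal clusters the KO value was the smaller one: KO 107 and WT 127 CPM in cluster 6, KO 66.8 and WT 79.8 CPM in cluster 10, and KO 130.01 and WT 148 CPM in cluster 14. These clusters share the same KO and WT libraries and are not replicates. Cluster 10, the lowest of them in Srgap2, made up 5.25% of KO and 2.34% of WT cells. Over the other processing settings the striatal ratio of Srgap2 ran from -0.32 to -0.23. Enah was at KO 191 and WT 205 CPM (-0.10, -0.17 to -0.03), and Cttn at KO 59.7 and WT 65.6 CPM (-0.14, -0.25 to -0.02). GABAergic neurons made up 30.9% of the KO and 24.6% of the WT cells, and the part of that shift in these ratios was not tested beyond the equal cluster weights.

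In progenitors 9 members were measured, all but Baiap2, and 0 were past the rule of size, as were 0.499% of 6817 genes. The median ratio was -0.01, beside -0.03 over all genes. Diaph2 had an interval below 0, as had 20.3% of genes, at KO 16.3 and WT 20.7 CPM (-0.34, -0.56 to -0.12), and 0 members had one above, as had 10.0% of genes. The ratio of Diaph2 was -0.16 with equal cluster weights and -0.42 without doublet removal, neither with an interval of its own, and -0.20 with the mean of per-cell CPM, where the interval moved along with the value included 0. Radial glia, its richest progenitor class, were 1.81% of the KO and 3.10% of the WT cells, and there Diaph2 was at KO 25.2 and WT 33.2 CPM (-0.40, -0.86 to 0.05). The part of cell shares in the Diaph2 ratio of progenitors was not tested beyond the equal cluster weights. The ratio of Diaph1 was 0.17 (-0.01 to 0.35), from KO 28.6 and WT 25.5 CPM. The intervals of Enah, Evl, Vasp, Srgap2, Dbn1, Cttn and Wasl also included 0, with ratios from -0.05 to 0.10. Within intermediate progenitors, Srgap2 (-0.29, -0.57 to -0.02) and Dbn1 (-0.13, -0.24 to -0.01) had intervals below 0, as had 8.61% of genes. Cyfip2 tags were at a log2 ratio of 0.83 (0.69 to 0.97) in progenitors and -0.01 (-0.29 to 0.26) in intermediate progenitors. Any link of the members to Cyfip2 was not tested.

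Over all cells together, 9 members were measured, all but Diaph2, 0 were past the rule of size (0.542% of 7012 genes were), 2 had intervals above 0 (17.2% of genes) and 5 below 0 (31.7% of genes). The median was -0.04, beside -0.02 over all genes. Vasp was at KO 25.7 and WT 23.7 CPM (0.12, 0.04 to 0.20) and Evl at KO 271 and WT 264 CPM (0.04, 0.02 to 0.06). Vasp was at 0.01 with equal cluster weights, and vascular and immune cells, where it is highest, made up 0.598% and 0.945% of the KO cells and 0.404% and 0.593% of the WT cells. The part of these cell shares in the Vasp ratio was not tested beyond the equal cluster weights.

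Other genes of these pathways were taken from 6 lists with 92 genes in the table: partners of Ena/VASP proteins, other formins, other membrane-bending proteins, the WASP family and its partners, relatives of drebrin and cortactin, and small GTPases upstream. Over all cells 56 of the 92 were measured, and 0 were past the rule of size. In excitatory neurons 54 were measured and 1 was higher: Rnd3, an atypical small GTPase that acts in migrating neurons, at KO 35.9 and WT 21.9 CPM (0.71, 0.60 to 0.81). In GABAergic neurons 52 were measured and 1 was higher: Dcc, a netrin receptor, at KO 103 and WT 68.0 CPM (0.60, 0.49 to 0.70). Among the excitatory clusters, the Tfap2d cluster made up 6.32% of all KO and 2.22% of all WT cells. Among the GABAergic clusters, striatal cluster 10 made up 5.25% of KO and 2.34% of WT cells. Cluster 4, of the medial eminence, went the other way, at 4.68% of KO and 5.49% of WT cells. The part of such shifts in the Rnd3 and Dcc values was not tested. In progenitors 46 were measured and 0 were past the rule. Of all measured genes, 0.542% in all cells, 0.251% in excitatory neurons, 0.629% in GABAergic neurons and 0.499% in progenitors were past it in either direction. The interval lay above 0 for 14, 9, 5 and 4 of these genes in all cells, excitatory neurons, GABAergic neurons and progenitors, and below 0 for 17, 19, 8 and 11. The shares over all genes in the same order were 17.2%, 14.8%, 11.3% and 10.0% above 0 and 31.7%, 23.1%, 15.1% and 20.3% below 0. The medians over all listed genes were -0.02, -0.01, 0.00 and -0.04 in the same order.

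Among the members themselves, levels over 16 classes correlated most between Enah and Cttn (Pearson r of 0.975, on the log2 CPM averaged over both libraries) and least between Enah and Vasp (-0.949). Without the immune class the values were 0.386 for Enah and Cttn and -0.317 for Enah and Vasp. Over the 15 remaining classes, an alternative chosen after the data were seen, the highest value was between Evl and Dbn1 (0.849), followed by Evl and Diaph1 (0.841), and the lowest between Baiap2 and Wasl (-0.790). Classes share libraries and lineage, so these values are a description. Of 10048 genes compared over 16 classes, the 3 most like Enah were Mex3a, Rbm15b and Scg3, those most like Vasp were Snx6, Ctsd and Lcp1, and the first 2 for Evl were Cmip and Atpif1. Diaph1 was most like B230334C09Rik, Lrrc7 and Cacna1b, and Diaph2 most like Bsg, Spcs1 and H2-T22. Baiap2 was most like Sla, Oma1 and Lnx2, and Srgap2 most like Pik3cd, Pxk and Rnf19b. Dbn1 was most like Samd14, Tcaf1 and Usp11, Cttn most like Rab39b, Uba3 and Bod1, and Wasl most like Tmem176a, Tpra1 and Trib1. The coefficients of these first matches ran from 0.847 for Srgap2 and Pik3cd to 0.993 for Dbn1 and Samd14. Without the immune class, the gene most like Evl was Sept5 (0.981), the gene most like Dbn1 Tulp4 (0.978), the gene most like Baiap2 Usp43 (0.940), and the gene most like Vasp Ufc1 (0.822). Of the matches, Lrrc7 and B230334C09Rik for Diaph1 and Lnx2 for Baiap2 were among the first 3 both with and without immune cells.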

How the data were processed

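Each matrix held raw UMI counts a gene and droplet barcode, deposited by the authors before cell calling and written by Cell Ranger 4 per the file headers. The genome was mm10 per the submitters' processing notes, and the annotation release is not given in the sources used here. Barcodes counted as cells from 1000 UMIs and 500 genes upward, unless over 10% of their UMIs were mitochondrial. Scrublet scores removed 0.8% doublets for each 1000 called cells (1322 in KO, 660 in WT). Both libraries were clustered together (2000 variable genes without the members, the pathway lists and Cyfip2, 30 components, 15 neighbours, Leiden resolution 1) with scanpy 1.11.5 and leidenalg 0.10.2 in Python 3.11.15. Clusters were named after they were seen, from 25 marker sets, and 3 stayed unnamed.

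UMIs were summed by class and library and divided by the class total. Levels have exact Poisson intervals (scipy 1.17.1), ratios and shares exact binomial ones. All cover counting error only, since UMIs of 1 library are no replicates, and no test between libraries was possible. The members and gene lists were chosen with earlier results of these data known. All members were described. Of the pathway lists, genes past the rule of size in 1 of the 4 cell groups were named, as were the 3 genes most correlated with each member, except 1 that is not reported here. Sequences are from RefSeq (GRCm38.p6), and gene positions from the GENCODE annotation of GRCm38. The ratio and interval steps were checked on simulated counts.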

Additional observations from a re-analysis of the deposited data

Results flagged for a closer look

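Evl had intervals above 0 in the Tfap2d excitatory cluster and in deep-layer neurons and below 0 in striatal neurons. In the Tfap2d excitatory cluster it was at KO 293 and WT 219 CPM, a log2 ratio of KO over WT of 0.42 (0.24 to 0.61), from 729 KO and 187 WT cells. The interval lay above 0 for 9.82% of genes there, and 7.57% were past the rule of size, the largest share among the 16 classes. In deep-layer neurons Evl was at KO 384 and WT 361 CPM (0.09, 0.03 to 0.16), where 9.06% of genes had an interval above 0. In striatal neurons Evl was at KO 371 and WT 392 CPM, a log2 ratio of -0.081 (-0.15 to -0.01), where 9.08% of genes had an interval below 0. The difference between the classes was not tested, since each genotype has 1 library. Without doublet removal the ratio in the Tfap2d cluster was 0.11.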

How the results depend on the processing

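Results were recomputed with other scalings, cell filters, clusterings and weights. The number of members with an interval above 0 in all cells was 2, but 1 with equal cluster weights, 1 without doublet removal and 0 with the mean of per-cell CPM. In excitatory neurons it was 1, but 0 with the mean of per-cell CPM. In progenitors it was 0, but 1 with the median-of-ratios size factor, 1 without doublet removal and 2 with the mean of per-cell CPM, which also left 0 members in place of 1 with an interval below 0. The log2 ratio of Evl in all cells, 0.04, was reversed to -0.026 with equal cluster weights. For all of these the cause was not tested. Of the other log2 ratios, 16 moved by more than their counting error and 1779 did not. Baiap2 in excitatory neurons was at -0.21 and, with equal cluster weights, -0.01. Of the family shares and the ranges over classes, 39 moved and 95 did not. Without doublet removal 36 of the shares moved, among them Enah in KO immune cells, at 10.7% against 5.19%, and Evl in the WT Tfap2d cluster, at 51.3% against 44.5%. Diaph1 in the Tac2 Eomes newborn cluster ran from -0.92 to -0.41. Without doublet removal that cluster did not form, so it gave no value. No paired analysis was possible because each genotype has 1 library, and no library could be left out. Diaph2 and Baiap2 were too low for a ratio in many classes at this depth.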
